A study of Mus musculus with 16 samples.

Results

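Double-stranded RNA was isolated from mouse testis with the mouse monoclonal antibody J2, which recognizes duplex RNA regardless of its sequence, and the bound RNA was sequenced. The comparison described here set 3 J2 libraries labelled Dicer knock-out (genotype Dcr-/-) against 3 wild-type J2 libraries, all from testis at postnatal day 18 on a C57BL/6 x 129S4/SvJae background. Its members were the 5508 of 35920 genes with a normalized count of 10 or more in at least 2 of these 6 libraries. Another 20061 genes were at 0 in all 6, and 10351 had some signal but did not pass. The cut-off ran between Gata4, whose second-highest value was 10.002, and Cbfb, whose second-highest value was 9.995. The RNA that did not bind (flow-through) was sequenced for 3 libraries of each genotype as well, and 2 adult J2 libraries, of unknown strain, entered the model as an estimate of the spread only. The labels name no Cre driver or promoter for the deletion and do not say that the libraries came from separate animals, so the p-values measure the spread between these libraries, which may be technical.

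Dicer is the RNase III enzyme that cuts long double-stranded RNA into small interfering RNAs and precursor hairpins into microRNAs. Drosha releases those hairpins from primary transcripts in the nucleus, Xpo5 exports them, and Argonaute proteins such as Ago2 carry the mature small RNAs. Complementary transcripts, hairpins and RNAs copied from both strands of the mitochondrial genome are natural sources of double-stranded RNA, which the sensors Ifih1, Ddx58 and Eif2ak2 detect. On postnatal day 18 the first wave of spermatogenesis has brought many mouse germ cells to the pachytene stage of meiosis, and elongating spermatids have not yet formed.

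Of 1180 microRNA loci in the table, 1155 were at 0 in all 6 J2 libraries and 2 passed the cut-off, Mir6240 and Mir6236. Their mature sequences are shown because they are the features annotated as microRNAs whose J2 signal could be compared. Sequences are from RefSeq (GRCm38.p6), where 1024 of the loci matched. Capitals mark the seed, bases 2 to 8, and the 2 seeds differ.
mmu-miR-6240: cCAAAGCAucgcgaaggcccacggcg
mmu-miR-6236: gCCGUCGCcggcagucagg
The hairpin of Mir6240 lies on the plus strand at chr5:114851948-114852064, and capitals mark the mature part within its 117 bases.
Mir6240 hairpin: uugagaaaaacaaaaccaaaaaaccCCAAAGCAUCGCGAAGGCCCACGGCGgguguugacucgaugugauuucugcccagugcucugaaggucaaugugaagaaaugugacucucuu

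Mir6236 read 244, 167 and 148 normalized counts in the knock-out libraries and 61.6, 47.3 and 129 in the wild type. Every knock-out value lay above every wild-type value, but the log2 difference of 1.32 did not pass the test (limma adjusted p at least 0.86 for both loci). Mir6240 read 380, 131 and 203 in the knock-out and 224, 52.9 and 181 in the wild type, and its groups overlapped. The remaining 23 loci with any signal stayed below the cut-off. They were scattered, with 13 of the 25 loci above 0 in at least 1 knock-out library and 16 in at least 1 wild-type library. Mirlet7a-1, a let-7 precursor locus, read 18.1 in wild-type library 2 and 0 in the other 5. A locus value covers the annotated transcript and does not separate a mature microRNA from its precursor. Whether the reads at Mir6236 and Mir6240 came from microRNA transcripts or from other RNA of like sequence was not tested.

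The targeted gene, Dicer1, did not reach the cut-off. It read 3.39, 0 and 0 in the knock-out J2 libraries and 11.3, 0 and 8.64 in the wild type, so its J2 signal overlapped between the genotypes and does not check the labels. The 6 J2 columns summed to 0.446 M to 0.824 M normalized counts (M for mega), and the smallest repeated step in them corresponds to about 1.23 M to 2.89 M reads. A value of 10 then stands for about 19.4 to 50 reads. Between 169 and 788 members were at 0 in a knock-out library and between 192 and 1280 in a wild-type library. Spearman correlations across the 5508 genes, which are not independent replicates, were 0.27 to 0.30 between knock-out libraries, 0.26 to 0.31 between wild-type libraries and 0.22 to 0.36 across genotypes. Libraries of 1 genotype were thus no more alike than libraries of different genotypes. The feature CT010467.1, which had no match in RefSeq, held 61.0%, 62.4% and 62.4% of the knock-out signal and 47.4%, 37.9% and 61.1% of the wild-type signal. The shares averaged 61.9% ± 0.833 and 48.8% ± 11.7 (SD, n = 3 each, two-sided exact permutation test p = 0.2, where 0.1 is the smallest p possible). Their difference of 13.2 percentage points was 7.70 without wild-type library 2 and 19.3 without wild-type library 3.

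Across the 5508 genes, 1 gene differed between the genotypes. The small nuclear RNA feature Gm24924 was lower in the knock-out, and no gene was higher (limma, Benjamini-Hochberg adjusted p below 0.05, 0.0182% of genes). At an unadjusted p below 0.05 there were 223 genes higher (4.05%) and 133 lower (2.41%), 6.46% together. A looser description counts genes whose 3 knock-out values all lie above, or all lie below, the 3 wild-type values. It held for 348 genes above (6.32%) and 236 below (4.28%), 10.6% of genes in all, and such genes are called separated in what follows. In a two-sided exact permutation test of 3 against 3 libraries such a gene has p = 0.1, the smallest possible. Without any effect of genotype a proportion of about 0.1 of genes would thus be separated, close to the 10.6% seen. The word is a description and does not mark a difference between genotypes. The median log2 difference over all genes was 0.17, with quartiles at -0.73 and 1.197. Its standard error had a median of 1.53, and of 0.65 among the 27 genes with a mean of 500 or more. Where the genes were many and low, differences of several-fold were therefore within the error, as the plot of difference against level shows.

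**Figure D1:**
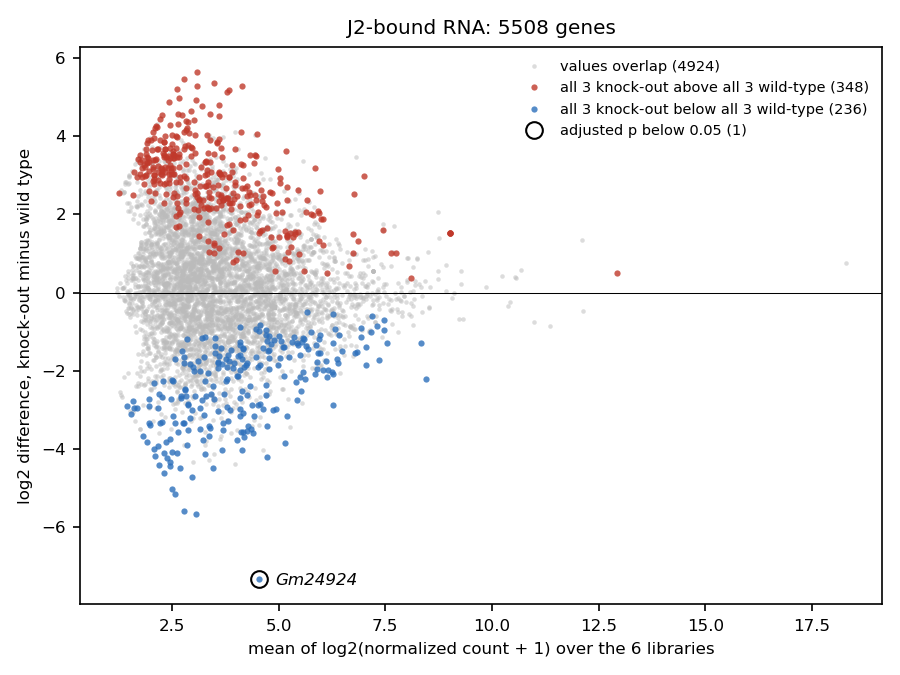
Log2 difference (knock-out minus wild type) against the mean log2(normalized count + 1) over the 6 J2 libraries, 1 point per gene. Red and blue points are the 348 and 236 separated genes; the circled point, Gm24924 at -7.31, is the gene that passed the test.

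Gm24924 read 5.15, 0 and 0 normalized counts in the knock-out J2 libraries and 264, 1046 and 88.1 in the wild type. It differed by -7.31 on the log2 scale (SE 1.45, limma adjusted p = 0.019), and wild-type library 2 alone supplied most of the wild-type mean of 466 ± 510 (SD, n = 3). The adult J2 libraries read 0 and 3.73. In flow-through it was listed at 0 in all 3 knock-out libraries and read 79.9, 0 and 50.7 in the wild type. The call ended without knock-out library 2 or 3, without any 1 of the wild-type libraries, with a pseudocount of 0.5 and with a filter at 50 or none. Over all alternatives the limma adjusted p ranged from 4.8e-05 to 0.50. The difference was below 0 in each, as separated values require when a library is left out or the pseudocount differs.

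Gm24924 is annotated on chromosome 18 as an snRNA of 164 bases, a length it shares with Rnu1a1, Rnu1b1, Rnu1b2 and Rnu1b6. These are genes of U1, the spliceosomal RNA that pairs with 5′ splice sites. The table held 34 features of this length, of which 15 had signal in the 6 libraries. Rnu1a1 and 5 other features had the same value in each of the 6 libraries, 96.3, 260 and 219 in the knock-out and 264, 33.2 and 198 in the wild type. Gm26244 read 4.55, 0 and 0 against 233, 0 and 77.8. Whether these features share reads was not tested, so the value of a single one is uncertain.

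Summed over the features of this length, the knock-out libraries read 807, 1961 and 1691 and the wild-type libraries 2637, 1710 and 1645. The groups overlapped, with means of 1486 ± 604 and 1997 ± 555 (SD, n = 3 each, log2 difference -0.49, two-sided exact permutation test p = 0.5). With the 34 copies entered as 1 summed feature, an alternative chosen after seeing the data, no gene passed (354 at unadjusted p below 0.05, smallest limma adjusted p 0.58) and the summed feature differed by -0.49 on the log2 scale (SE 0.56, limma adjusted p = 0.96). In wild-type library 2 the copies with the values of Rnu1a1 were low where Gm24924 was high. The fall of Gm24924 is thus a change in 1 annotated feature, and a change of the summed U1-length signal was not detectable.

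**Figure D2:**
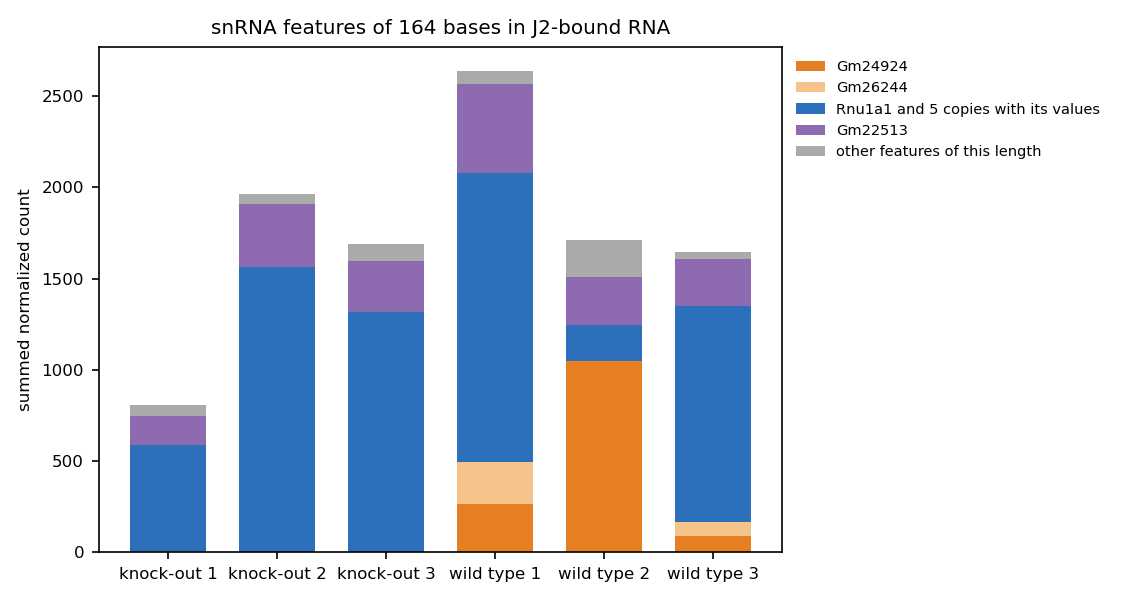
Summed normalized counts (y axis, from 0) of the snRNA features of 164 bases in each J2 library, stacked by feature. Gm24924 (orange) is seen only in the wild-type bars at this scale, while the bar heights, 807 to 1961 in the knock-out and 1645 to 2637 in the wild type, overlap.

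In a second spliceosomal family the values lay higher in the knock-out. Rnu2-10, a U2 gene, and the features Gm24950, Gm23971 and Gm23849 carried nearly the same values, 676, 835 and 1155 in the knock-out and 239, 172 and 673 in the wild type for Rnu2-10. U2 pairs with the branch point of introns. All 3 knock-out values exceeded the wild-type ones, by 1.52 on the log2 scale (SE 0.65), and the difference did not pass the test (limma adjusted p = 0.74). Since the 4 features share their values, they count as 1 observation. Over the 41 snRNA features tested, 3 were separated above (7.32%, against 6.32% of all genes) and 1 below (2.44%, against 4.28%), with a median of 0.12. Gm23849 had no snRNA match in RefSeq and is not among the 41, so the 3 are the other features with the values of Rnu2-10, itself included.

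The genes named below are among the 10 in each direction that had the smallest p among separated genes with a mean of at least 50 in the higher genotype. Except for Gm24924 they had limma adjusted p of 0.54 to 0.57, and their values are given as a description. Npat, a coactivator of histone gene transcription (chr9:53536889-53575627), read 37.2, 27.9 and 1198 in the knock-out and 3.58, 0 and 4.04 in the wild type. Knock-out library 3 was far above the other two, and the log2 difference was 5.27 (SE 1.36). Prdx3, a mitochondrial peroxiredoxin (chr19:60864066-60874538), was more even, at 69.4, 117 and 76.1 against 0, 0.925 and 6.06. Its log2 difference was 5.18 (SE 1.42).

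Nf1, which encodes the Ras GTPase-activating protein neurofibromin, read 48.9, 214 and 190 against 3.72, 9.61 and 21.1, a log2 difference of 3.62 (SE 1.06). In flow-through its values lay between 17.1 and 29.9 in all 6 libraries, with a difference of -0.38. Map3k7, the kinase TAK1, read 23.5, 44.5 and 334 against 0, 0 and 4.32. Kdm5a, a histone H3 lysine demethylase, read 68.2, 19.998 and 90.0 against 3.81, 0 and 1.09. Both were thus near 0 in every wild-type J2 library, with knock-out values spread over several-fold.

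Mrps9, a protein of the small mitochondrial ribosomal subunit, read 28.6, 19.2 and 158 against 0, 0 and 0.0975. Washc5, a subunit of the WASH complex on endosomes, read 160, 25.4 and 129 against 0, 0 and 11.6. The noncoding Gm26917 read 458, 306 and 335 against 3.50, 82.3 and 258, and wild-type library 3 came close to the knock-out. The RIKEN transcript 2900097C17Rik read 41.5, 79.1 and 75.7 against 0, 0.912 and 5.33.

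On the lower side Rnf32, a RING finger gene expressed in testis (chr5:29192745-29227635), read 23.7, 8.52 and 0 against 353, 48.5 and 80.2, a log2 difference of -4.19 (SE 1.14). Kdm3a, a histone demethylase required for spermatid maturation, read 63.5, 90.9 and 2.88 against 180, 350 and 141. Rps15a, a ribosomal protein mRNA, read 8.96, 10.9 and 5.73 against 383, 288 and 20.5, so wild-type library 3 was much nearer to the knock-out than the other two. Inpp5f, a phosphoinositide phosphatase gene, read 0.344, 0.198 and 0 against 122, 33.4 and 47.4. Dnali1 and Drc3 also belong here and are described with the axoneme.

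**Figure D3:**
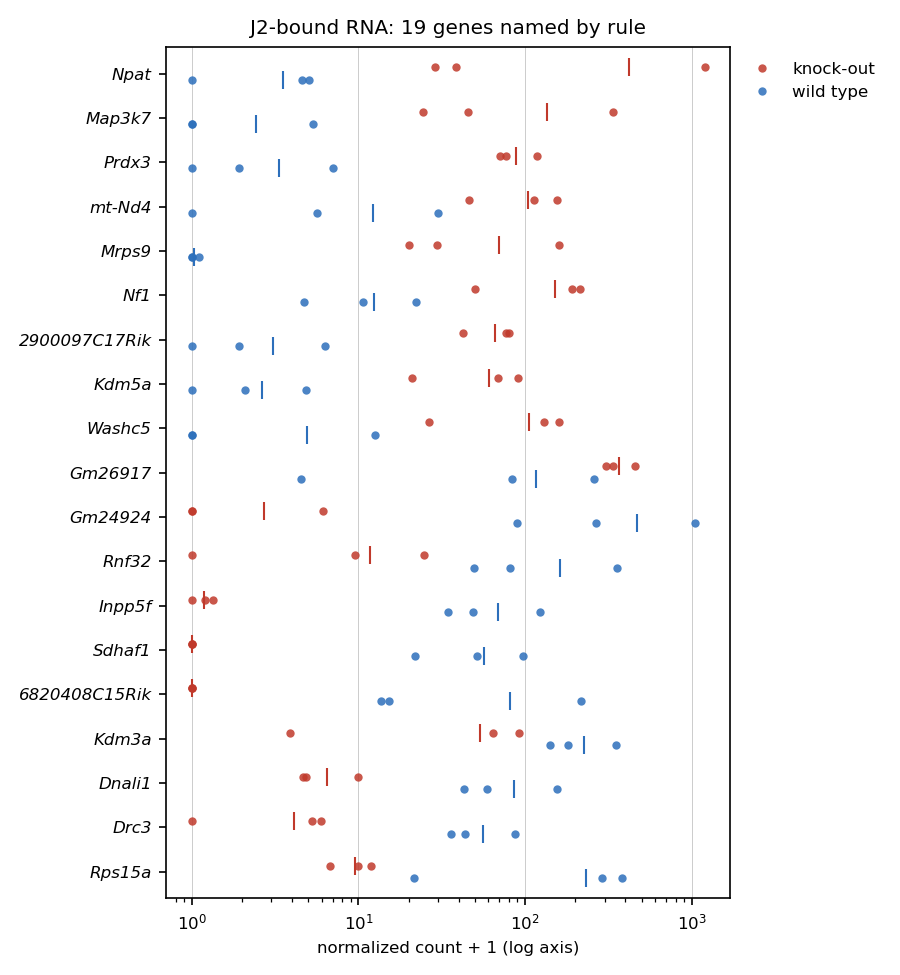
Normalized count + 1 on a log axis for 19 of the genes named by rule in the 6 J2 libraries (dots; ticks are group means). Points of the 2 genotypes do not overlap for any gene, which is how they were chosen except for Gm24924, which alone passed the test.

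Some genes had signal in 1 genotype only. Cish, a suppressor of cytokine signalling, read 19.7, 14.8 and 74.3 in the knock-out and was listed at 0 in all 3 wild-type libraries. Rnasek and Ube2d1, a ubiquitin-conjugating enzyme gene, had the same pattern, with knock-out values of 11.0 to 34.9 and 10.4 to 111. In the other direction Sdhaf1, an assembly factor of succinate dehydrogenase, was listed at 0 in the knock-out and read 50.1, 95.5 and 20.9 in the wild type. Lekr1, Urb2 and 6820408C15Rik were likewise at 0 in the knock-out, with wild-type values of 16.9 to 56.4, 16.4 to 42.6 and 12.7 to 215. These 3 and 4 genes are those at 10 or more in every library of 1 genotype and at 0 in the other, and none passed the test.

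The genes of the Dicer pathway itself were low in J2-bound RNA. Of 20 small RNA biogenesis genes, 10 reached the cut-off, 9 of these had a difference above 0, and the median was 1.58 against 0.17 for all genes. None passed the test (smallest limma adjusted p 0.78), and 1 was separated in each direction. On wild-type values alone only Ddx5, Ddx1 and Ddx17 would have reached the cut-off, and Drosha had no wild-type value of 10 or more. The cut-off itself thus favoured differences above 0 in this list, and its median is given as a description. Drosha read 32.1, 40.8 and 13.5 in the knock-out and 6.23, 0 and 6.90 in the wild type, a log2 difference of 2.82 (SE 1.51). Ddx5, a helicase that assists Drosha, read 19.1, 111 and 42.6 against 156, 130 and 159, a difference of -1.69 (SE 0.87). It was separated below in flow-through too, with a difference of -1.19. Ago2 (18.7, 9.26 and 38.2 against 0.432, 20.8 and 4.46) and Xpo5 (17.9, 2.63 and 25.3 against 0, 6.62 and 34.9) overlapped. The median ranged from 0.84 to 1.97 with single libraries left out, and in flow-through it was -0.20.

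Sensors of double-stranded RNA were near the floor. Of 36 sensing and interferon response genes, 14 were at 0 in all 6 libraries and 4 reached the cut-off. Ifih1 (MDA5) read 0, 0 and 4.18 in the knock-out and 12.8, 0 and 4.62 in the wild type. Ddx58 (RIG-I) and Eif2ak2 (PKR) did not exceed 2.13 in any of the 6 libraries. Mavs, the adaptor of both RIG-I-like sensors, was separated above, at 16.3, 8.55 and 13.9 against 0, 0 and 1.14. Bst2, an interferon-inducible membrane protein, was listed at 0 in the knock-out and read 18.3, 88.6 and 0.176 in the wild type. Neither passed (limma adjusted p 0.77 and 0.76).

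Double-stranded RNA binding and editing genes showed no separated member among the 13 tested (of 22), with a median of 0.03. Dhx9, a helicase that unwinds such RNA, read 45.4, 16.1 and 37.7 against 18.9, 20.4 and 87.7. Stau1, which binds double-stranded RNA in mRNA transport and decay, read 14.03, 24.8 and 12.5 against 6.27, 226 and 19.1. Adar, the main editor of adenosines in duplexes, did not reach the cut-off and read 6.64, 50.6 and 0 against 0, 0 and 0.167. The piRNA pathway, which works without Dicer, likewise had no separated member among 17 tested and a median of 0.03. Its Argonaute Piwil1 had the largest difference in that list, with 31.7, 4.72 and 0.831 against 109, 97.6 and 25.8 (log2 difference -3.24, SE 1.29, limma adjusted p = 0.69), and the groups overlapped.

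RNAs encoded by the mitochondrial genome lay mostly higher in the knock-out. The list named for that genome had 37 features in the table, and 13 of the 14 tested had a difference above 0. Of them 5 were separated above and 0 below, against 6.32% and 4.28% of all genes. The median was 1.03, and none passed the test (smallest limma adjusted p 0.54). Among the 11 heavy-strand mRNAs tested 4 were separated, with a median of 1.04 that stayed between 0.65 and 1.32 when single libraries were left out. In flow-through no heavy-strand mRNA was separated, and the median was 0.49.

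The separated members were mt-Nd4, mt-Nd5, mt-Nd6, mt-Cytb and mt-Co3, and the first 3 encode subunits of respiratory complex I. mt-Nd4 read 154, 44.7 and 112 in the knock-out and 4.67, 0 and 29.03 in the wild type, higher by 4.06 on the log2 scale (SE 1.17, limma adjusted p = 0.54). mt-Nd5 read 280, 273 and 374 against 201, 127 and 134, a difference of 1.02 (SE 0.75). mt-Nd6, a complex I mRNA transcribed from the other strand, read 130, 48.3 and 229 against 11.8, 21.3 and 37.7, a difference of 2.36 (SE 0.91). All 3 were separated in J2 and none of them in flow-through.

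mt-Cytb, a subunit of complex III, read 105, 81.4 and 144 against 7.74, 12.02 and 45.5, a difference of 2.63 (SE 0.98, limma adjusted p = 0.69). mt-Co3 read 341, 275 and 324 against 217, 255 and 247. The most abundant members overlapped between genotypes, mt-Rnr2 at 1502, 2237 and 2416 against 1692, 1574 and 934 and mt-Co1 at 1916, 1280 and 2009 against 784, 1451 and 1938. The mitochondrial share of the J2 signal overlapped between genotypes, 1.05% ± 0.0871 in the knock-out and 0.999% ± 0.215 in the wild type (SD, n = 3 each, two-sided exact permutation test p = 0.7). With the 10 highest other genes taken out of the total the share was 3.29%, 3.12% and 2.94% in the knock-out and 1.999%, 2.202% and 2.45% in the wild type, which do not overlap. The difference was then 0.899 percentage points (p = 0.1 by the same exact test, its lowest attainable value). One adult J2 library read far above all 6, with 17573 for mt-Co1.

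**Figure D4:**
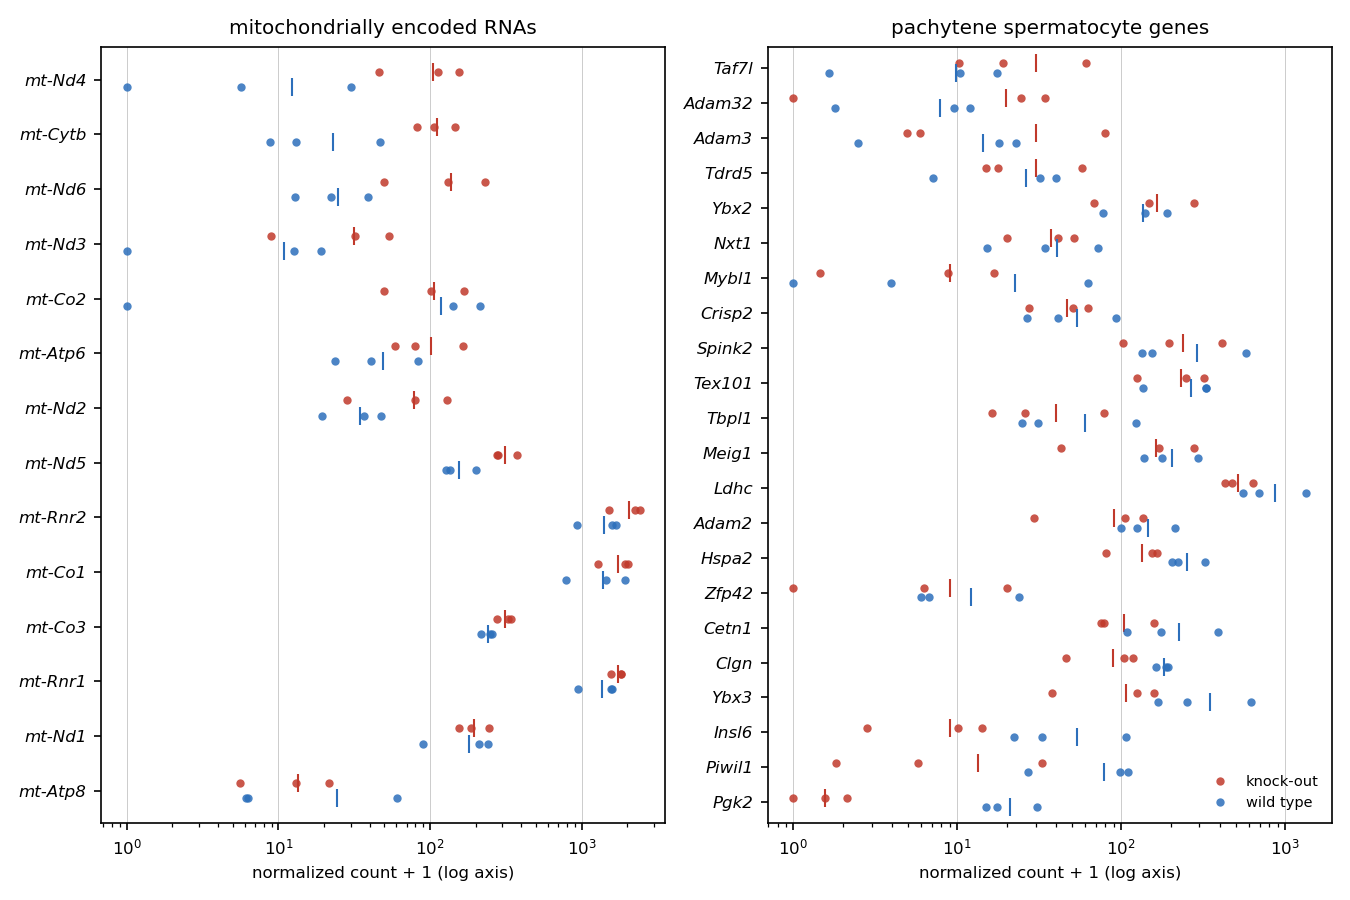
Normalized count + 1 on a log axis in the 6 J2 libraries (dots; ticks are group means), for the 14 mitochondrially encoded RNAs tested (left) and the 22 pachytene spermatocyte genes tested (right), each ordered by log2 difference. The upper mitochondrial rows have knock-out dots to the right, and the lower pachytene rows have wild-type dots to the right.

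Genes of pachytene spermatocytes lay mostly lower in the knock-out. Of 22 tested (30 in the table), 16 had a difference below 0, 5 were separated below and 0 above, and the median was -0.56, against 4.28% separated below and a median of 0.17 over all genes. Summed over the list, the knock-out libraries read 1607, 2197 and 2533 and the wild type 3390, 4079 and 2598, which do not overlap. None of the members passed the test (smallest limma adjusted p 0.69). The median stayed between -0.72 and -0.42 when single libraries were left out, and was -0.94 after scaling to a common total. In flow-through it was -0.05 against 0.32 for all genes. There 5 members (22.7%) were separated below, against 3.1% of all genes, and of these only Hspa2 was also separated in J2. Other germ-cell lists followed only in part in J2. Meiotic recombination and DNA repair genes (11 tested) had 1 separated in each direction and a median of 0.11. Synaptonemal complex and meiotic cohesin genes (9 tested) had 0 separated and a median of -0.43, from -0.55 to 0.11 with single libraries left out. Germ-cell RNA storage and translation genes (23 tested) had 1 separated above, 3 below and a median of 0.07.

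Pgk2, the testis phosphoglycerate kinase that replaces the X-linked enzyme in meiosis, read 1.11, 0 and 0.548 in the knock-out and 13.97, 16.4 and 29.5 in the wild type. The log2 difference was -3.75 (SE 1.33), and the adult libraries read 521 and 221. Insl6, an insulin-like hormone of meiotic germ cells, read 1.82, 9.16 and 13.2 against 105, 21.1 and 31.7. Ybx3, a Y-box protein that stores germ-cell mRNAs, read 123, 156 and 37.0 against 618, 252 and 167, a difference of -1.72 (SE 0.79, limma adjusted p = 0.76). In all 3 genes the wild-type values lay above the knock-out ones, by the narrowest margin for Ybx3.

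Clgn, a chaperone of sperm surface proteins, read 117, 103 and 44.9 against 185, 162 and 192. Hspa2, the meiotic heat shock protein, read 153, 79.9 and 163 against 222, 325 and 203. Ldhc, the testis lactate dehydrogenase and the highest of the list, read 427, 475 and 634 against 554, 1345 and 692, and its groups overlapped. Tex101, a germ-cell surface protein, differed by -0.19. Among genes of later germ cells, Prm1 and Acrv1 were at 0 in all 6, as were 18 of 39 spermatid genes in all. The 8 spermatid genes tested had a median of -0.46 and no separated member. The highest was Odf2, of the outer dense fibres of the tail, at 50.7, 51.8 and 126 against 488, 122 and 99.4.

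Genes of the axoneme and cilium, the sperm tail machinery that spermatocytes begin to transcribe, had the same direction in part. Of 54 tested, 7 were separated below (12.96%, against 4.28% of all genes) and 0 above, with a median of -0.30 (-0.60 to -0.01 with single libraries left out). In flow-through 2 were separated below and 1 above, with a median of -0.46 against 0.32 for all genes. Dnali1, a dynein light intermediate chain, read 3.85, 8.94 and 3.62 in the knock-out and 58.2, 154 and 41.8 in the wild type, a log2 difference of -3.60 (SE 1.17). Drc3, of the nexin-dynein regulatory complex, read 4.26, 4.99 and 0 against 42.3, 35.1 and 86.4, a difference of -4.03 (SE 1.31). Both had limma adjusted p of 0.57.

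Tekt1, a tektin of the axonemal microtubules, read 8.79, 12.2 and 34.1 against 85.3, 148 and 104, and was separated below in flow-through as well. Ift81, of intraflagellar transport, read 0.0663, 0 and 0.602 against 17.8, 4.65 and 81.3. The other separated members were Cfap298, Cfap206 and Drc1, with differences of -1.60, -1.26 and -1.96. Drc1 was separated by a small margin, since its highest knock-out value was 19.6 and its lowest wild-type value 19.7. The Spata and Tex genes, 17 tested, had 2 separated below and a median of -0.46.

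Histone genes held several of the most abundant features, and most of them overlapped between the genotypes. Of 57 tested by name, 3 were separated below (5.26%, against 4.28% of all genes) and 1 above (1.75%, against 6.32%), with a median of 0.17. The list of germ-cell and replacement histones (10 tested) had 1 separated in each direction. Its median was -0.53, from -0.79 to -0.06 with single libraries left out. The linker histones Hist1h1t, specific to spermatocytes, at 120, 289 and 248 against 400, 769 and 408, and Hist1h1d, at 71.4, 70.4 and 106 against 339, 176 and 165, were lower in every knock-out library. Hist1h4k read 52.7, 44.9 and 36.2 against 184, 196 and 103. Hist1h3g was the reverse, at 69.5, 109 and 41.6 against 16.3, 3.63 and 35.1. Hist1h2ba, the testis H2B and the most abundant histone here, overlapped at 1739, 5354 and 6102 against 7414, 4777 and 4167.

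Among genes of somatic testis cells, the Sertoli, collagen and myoid lists had medians above that of all genes. The Leydig (-0.13) and macrophage and blood (0.14) lists did not. With single libraries left out the Leydig median ranged from -0.02 to 1.19 and the macrophage and blood median from -0.78 to 0.30. That contrast thus depended on single libraries. In bulk tissue, fewer cells of a type and less RNA per cell cannot be told apart. Of 22 Sertoli cell genes, the nurse cells of the tubule, 17 had a difference above 0 and the median was 0.62, or 0.26 after scaling to a common total. Of the 22, 2 were separated above (9.09%, against 6.32% of all genes) and 0 below. In flow-through 8 of the same 22 were separated above and 0 below, with a median of 0.57, against 7.35% and 3.1% of all genes and 0.32. Aard, expressed in Sertoli cells, was the most even, at 178, 180 and 182 in the knock-out against 74.1, 30.8 and 109, higher by 1.497 on the log2 scale (SE 0.88, limma adjusted p = 0.83). Amhr2, the receptor of anti-Müllerian hormone, read 61.1, 29.4 and 34.1 against 7.30, 14.6 and 18.6. The most abundant genes of the list overlapped between the genotypes. Clu read 270, 264 and 208 against 375, 110 and 268, and Ctsl 202, 77.0 and 181 against 317, 148 and 144. Sox9, the defining transcription factor, overlapped at 42.1, 8.86 and 9.89 against 2.93, 5.81 and 13.4, and Amh was below 1 in all 6. The list's sum ranged from 1309 to 1601 in the knock-out and from 738 to 1715 in the wild type, so it did not separate the genotypes. The part of cell composition in the lower pachytene values was not tested.

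Collagen and matrix genes had 2 of 26 separated above (7.69%, against 6.32% of all genes) and a median of 0.68. The peritubular myoid genes had 1 of 8 (12.5%) with a median of 1.12. Knock-out library 3 had the highest collagen and matrix sum, 3911 against 1265 and 707 in the other knock-out libraries. Col3a1 read 1933 there, against 103 and 268 in the other knock-out libraries and 268, 126 and 44.1 in the wild type. Without single libraries the collagen and matrix median ranged from 0.50 to 1.25 and the myoid median from 0.20 to 1.56. Leydig cell genes had no separated member among 10, with the steroidogenic Cyp11a1 at 64.9, 8.36 and 20.3 against 0, 19.97 and 27.5. Of 10 macrophage and blood genes 2 were separated below (20%, against 4.28% of all genes), C1qb and Hba-a2. Hba-a2 read 3.07, 2.53 and 12.02 against 30.2, 121 and 33.4. Hba-a1 of the same list read 40.8, 33.9 and 131 against 0, 78.7 and 14.1, and its groups overlapped, as did those of C1qc and Hbb-bs. Whether Hba-a1 and Hba-a2 share reads was not tested, so the value of either one is uncertain. No gene of the epididymis list reached the cut-off, and 9 of its 12 were at 0 in all 6.

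Housekeeping groups had medians between -0.35 and 0.17. For their counts, the shares over all genes were 6.32% separated above and 4.28% below. The cytosolic ribosomal proteins had 3 of 83 separated above and 6 below, with a median of -0.14 that changed sign when single libraries were left out (-0.41 to 0.18). Nuclear respiratory chain subunits had 2 above and 2 below of 73 (median -0.09), and mitochondrial ribosomal proteins 2 and 2 of 58 (median 0.09). Proteasome subunits had 2 above and 3 below of 39, with a median of -0.35 that stayed between -0.40 and -0.15, below the range of 0.04 to 0.29 for all genes. Small nucleolar and Cajal body RNAs had 2 above and 1 below of 28, with a median of 0.17. Scaling each library to a common total moved the median of all genes from 0.17 to -0.13, and list medians moved with it: 0.62 to 0.26 for the Sertoli list, 1.04 to 0.66 for heavy-strand mRNAs, -0.56 to -0.94 for the pachytene list and -0.30 to -0.61 for the axoneme.

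**Figure D5:**
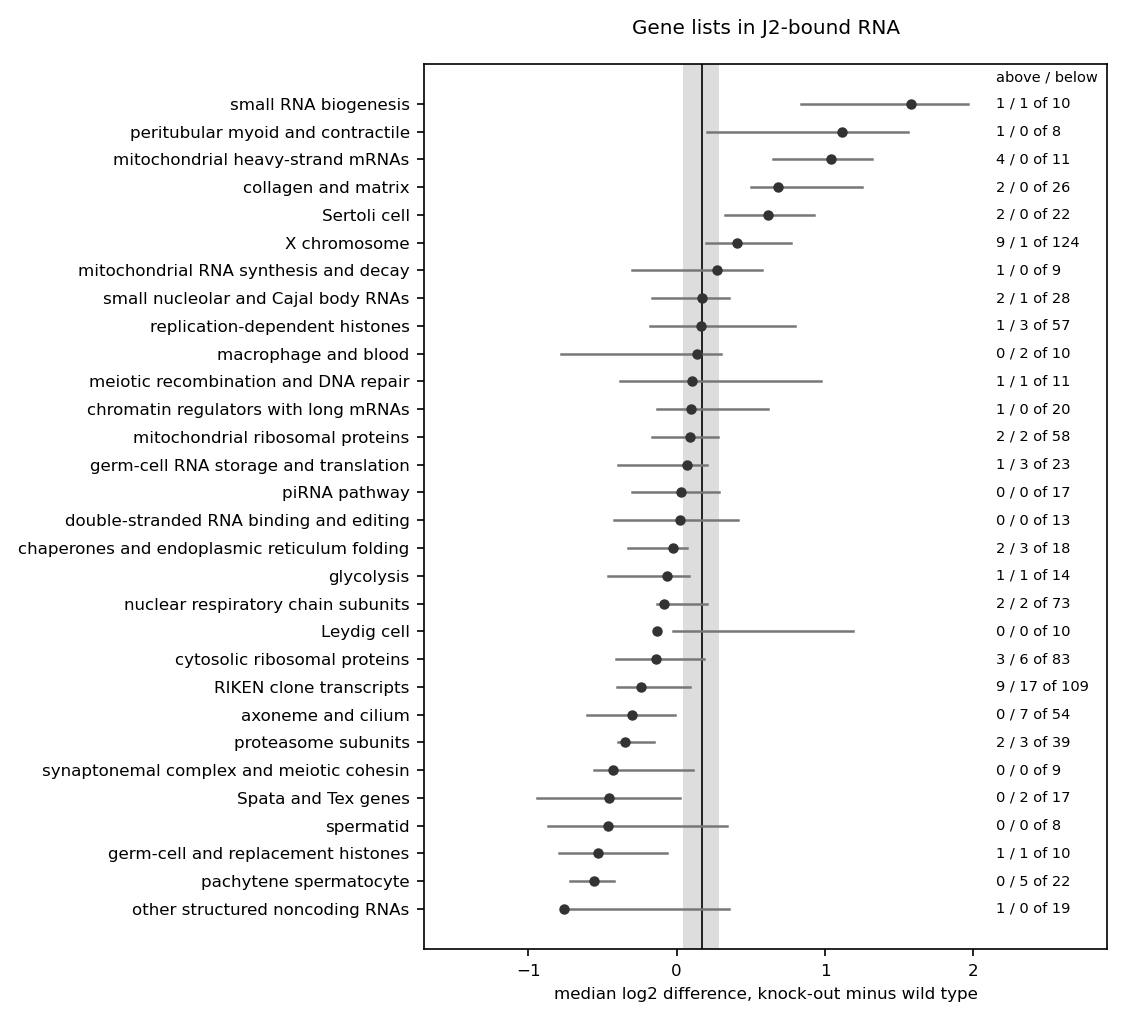
Median log2 difference (knock-out minus wild type) of each list with at least 8 genes tested (dots) and its range when single libraries are left out (lines); the numbers are separated genes above and below of those tested. The black line and grey band give the same for all 5508 genes, 0.17 and 0.04 to 0.29; the pachytene, proteasome, axoneme, Spata and Tex, and germ-cell histone ranges lie wholly below the band, and the small RNA biogenesis, heavy-strand mRNA, collagen and Sertoli ranges wholly above it.

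X-linked genes had 9 separated above (7.26%) and 1 below (0.81%) of 124, against 6.32% and 4.28% of all genes, with a median of 0.41. In flow-through the same genes had 17 above and 4 below and a median of 0.83, in the same direction as in J2. Over all genes the flow-through shares were 7.35% above and 3.1% below, with a median of 0.32. Autosomal genes had 6.18% separated above and 4.35% below, with a median of 0.16. Protein-coding genes were also sorted by genomic span, with 1041 genes in the shortest and in the longest quintile. The shortest quintile (up to 8.48 kb) had 50 above (4.80%) and 65 below (6.24%). The longest quintile (from 72.4 kb) had 64 above (6.15%) and 30 below (2.88%). The medians were 0.07 and 0.33, and in flow-through 0.24 and 0.43, the same order.

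A gene on the opposite strand of the same interval could pair with a transcript. Such an overlap was annotated for 28.03% of the 4313 members with a strand. It was annotated for 26.2% of the 271 separated above and 29.4% of the 177 separated below, each close to the share over all members. Members with an opposite-strand gene had a median difference of 0.20 and those without one 0.17.

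The promoters of Npat, Rnf32 and Dnali1 are shown because these genes stand for the higher side, the lower side and the axoneme, and because the separated genes were compared for promoter motifs. Each is the RefSeq window (GRCm38.p6) of 300 bases around the start, 5′ to 3′ along the gene, with capitals marking the GC box GGGCGG and the CCAAT box CCAAT on either strand. The windows are chr9:53536797-53537096 on the plus strand, chr5:29195743-29196042 on the plus strand and chr4:125065608-125065907 on the minus strand. The table gives 1 start for a gene, and that of Rnf32 lies inside the interval given above, not at its first base.
Npat: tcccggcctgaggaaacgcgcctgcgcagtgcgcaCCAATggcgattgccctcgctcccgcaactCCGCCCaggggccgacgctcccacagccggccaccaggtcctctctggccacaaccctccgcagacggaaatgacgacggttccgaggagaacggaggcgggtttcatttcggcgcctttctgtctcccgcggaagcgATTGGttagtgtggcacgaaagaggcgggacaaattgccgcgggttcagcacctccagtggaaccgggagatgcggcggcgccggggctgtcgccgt
Rnf32: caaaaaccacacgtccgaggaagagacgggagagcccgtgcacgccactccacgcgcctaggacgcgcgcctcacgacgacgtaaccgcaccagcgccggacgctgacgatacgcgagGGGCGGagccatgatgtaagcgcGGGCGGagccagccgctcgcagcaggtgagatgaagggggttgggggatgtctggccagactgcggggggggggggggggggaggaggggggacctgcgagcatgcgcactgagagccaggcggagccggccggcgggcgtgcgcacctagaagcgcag
Dnali1: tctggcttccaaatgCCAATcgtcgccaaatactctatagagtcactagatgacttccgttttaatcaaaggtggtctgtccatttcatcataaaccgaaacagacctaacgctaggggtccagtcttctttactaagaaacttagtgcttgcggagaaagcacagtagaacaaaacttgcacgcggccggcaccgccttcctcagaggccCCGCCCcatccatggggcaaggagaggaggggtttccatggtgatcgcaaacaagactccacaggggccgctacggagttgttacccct
The GC box was found in 67.4% of members' promoters, 72.0% of those separated above and 63.8% of those separated below, against 35.9% of all 27025 promoters. The CCAAT box was found in 40.3%, 41.3% and 34.5%, against 37.9% of all. The TATA box TATAAA was found in 7.33%, 7.75% and 9.04%, against 14.2%, and the cAMP response element TGACGTCA in 3.76%, 3.69% and 6.21%, against 1.88%. For the GC box, members as a whole differed from all promoters by more than the 2 directions differed from each other. The cAMP response element in genes separated below rests on 11 promoters. A match is a run of letters in the window and not a measured binding site.

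In flow-through, measured in separate libraries, the same 5508 genes gave no call (limma, 232 higher and 85 lower at unadjusted p below 0.05), with 405 separated above (7.35%), 171 below (3.1%) and a median of 0.32. A value of 10 there stands for only about 1.2 to 4.99 reads. Of the 348 genes separated above in J2, 32 were also separated above in flow-through, which is 9.2% of the J2 genes and 7.9% of the flow-through genes. Of the 236 separated below, 9 were separated below in flow-through, 3.81% and 5.26%. Over all genes the flow-through shares were 7.35% and 3.1%. The difference between the fractions in the effect of genotype passed the test for no gene (limma, 273 at unadjusted p below 0.05). For Gm24924 too the fractions were not shown to differ (limma adjusted p = 0.997 for the interaction).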

How the data were processed

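The authors deposited 1 table of normalized counts, a signal with 1 value for each Ensembl gene in each library. The submitters' processing notes name FastQC, Trimmomatic, Salmon, DESeq2 and mm10, without versions or settings, so how reads shared by gene copies were divided is not given in the sources used here. The kit used for low RNA input keeps strand, per the labels' protocols.

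Genes at 10 or more in at least 2 of the 6 libraries were kept, and log2(value + 1) was fitted with limma 3.58.1 (R 4.3.3) over the 8 J2 libraries with a mean-variance trend and Benjamini-Hochberg adjustment. Fold changes are on that scale and understate low genes. Flow-through and interaction fits used the same genes. Single values were compared by exact permutation tests. Features without a symbol (10 members) are counted and not named. Genes were named if called, if among the 10 separated genes per direction with the smallest p and a mean of 50 or more in the higher genotype, or from lists by level or separation. One gene that the rule named is not reported here. Other list members named, and those in 1 genotype only, were chosen after their values were seen. The members and lists were chosen with earlier results of these data known. The list of opposite-strand transcripts was trimmed of protein-coding names ending alike. It had 1 of 7 separated above and a median of 0.44. Symbols, coordinates and sequences came from RefSeq (GRCm38.p6), which matched 5421 members and not 87. The fits were checked on simulated data, where recovery of added changes was required only at a spread far smaller than in these libraries. That check does not show how small a change these libraries could reveal.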

Additional observations from a re-analysis of the deposited data

How the results depend on the processing

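The single call in J2, Gm24924, was retained under 9 of 20 alternatives. The count of called genes was 0 with a pseudocount of 0.5, a filter at 50, no filter, the spread taken from all libraries, no mean trend and the summed snRNA copies, and 0 to 1 with single libraries left out. It was 0 without knock-out replicate 2 or 3 or any 1 of the wild-type replicates 1, 2 and 3. The log2 difference of Gm24924 ranged from -8.19 to -4.73 and its limma adjusted p from 4.8e-05 to 0.50. In all, 34 genes were followed through the alternatives, those named by rule and those given with a standard error. None but Gm24924 was called, and none changed sign. Most of them are separated genes, whose sign cannot change when a library is left out or the pseudocount differs. Their unchanged sign is thus no check under those alternatives. The other named genes were not refitted. Flow-through and the difference between fractions had 0 calls throughout. The difference in the mitochondrial share, 0.047 percentage points, ranged from -0.0349 to 0.169 with single libraries left out and changed sign without knock-out replicate 1 (-0.00146) or wild-type replicate 3 (-0.0349). Without the 10 highest other genes it was 0.899 points and the groups did not overlap. Of 808 list medians under alternatives, 34 moved by more than their spread. No paired analysis was possible because knock-out and wild-type libraries share no code. With the code shared by a J2 and a flow-through library as replicate block, the interaction again had 0 calls. Same-code libraries did not deviate together (correlations of -0.045 to 0.035). The cause of these changes was not tested. Low genes had a larger error than high ones. With 3 libraries a genotype the median standard error below a mean of 20 was 1.66 on the log2 scale. The part of sequencing depth in it was not tested.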
